A study of Mus musculus with 9 samples.

Results

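The genes described are those of the mouse mitochondrial genome, taken as every gene of the count table whose symbol begins with mt-. There are 37 of them among 55385 genes: 13 protein genes, 2 rRNA genes and 22 tRNA genes. They were measured by sequencing of polyadenylated RNA in 9 libraries of mouse kidney cells (males, 9 to 12 weeks of age), sorted for the red fluorescent protein tdTomato after digestion of cortex and outer medulla on ice. In the 3 uninjured libraries (Slc34a1IRES-CreERT2/+:R26RtdT/+) the label was driven by a tamoxifen-inducible Cre behind Slc34a1, a phosphate transporter gene of the proximal tubule. In the 6 other libraries (Sox9IRES-CreERT2/+:R26RtdT/+) Cre was driven by Sox9, a transcription factor gene of injured tubule epithelium, after ischemia-reperfusion injury of both kidneys. For 3 of these tamoxifen was given at the injury and cells were taken at 48 h (48 h group). For the other 3 it was given on days 10 and 12 and cells were taken on day 14 (d14 group). Every mouse carried a reporter allele, 1 inducible Cre allele and tamoxifen. Cre allele, injury and tamoxifen schedule differ together between uninjured and Sox9-labelled cells and cannot be told apart. The labels name no sham operation for the uninjured group. Sorted cells are a selection by promoter activity, not a whole tissue.

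Mitochondria keep a small circular genome that encodes core subunits of the respiratory chain and of ATP synthase, together with the rRNAs and tRNAs used to translate them. The protein genes cover complex I (mt-Nd1 to mt-Nd6 and mt-Nd4l), complex III (mt-Cytb), complex IV (mt-Co1, mt-Co2 and mt-Co3) and ATP synthase (mt-Atp6 and mt-Atp8); all other subunits, and every factor that copies, transcribes or translates this genome, are made from nuclear genes. Each strand is transcribed as a long precursor, from which tRNAs are cut out, and most messenger RNAs receive a short poly(A) tail, so that they enter polyadenylated libraries. Proximal tubule cells are rich in mitochondria and draw most of their ATP from oxidation.

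Total counts ran from 8036054 to 51631204 per library, and 2916475 to 13625828 of them fell on mitochondrial genes. The levels below are CPM, counts scaled to a common library total after TMM, a correction of library size for differences in composition. Of the label genes, Slc34a1 was at 4792, 4623 and 4803 CPM in uninjured cells, 4401, 1146 and 1894 CPM in the 48 h group and 993, 1619 and 1651 CPM in the d14 group; 48 h replicate 1 was close to the uninjured libraries, and the gene was not called at 48 h (-0.93 ± 0.42, adjusted p = 0.126 by edgeR's quasi-likelihood test). Sox9 stood between 0.0351 and 0.634 CPM without injury, between 7.57 and 22.1 CPM at 48 h, and between 28.8 and 38.8 CPM at d14. The 15 proximal tubule markers summed to 41380 to 49840 CPM (uninjured), 13180 to 22630 CPM (48 h) and 5045 to 8643 CPM (d14), whereas the 7 markers of the thick ascending limb summed to 307 to 376, 838 to 1085 and 3054 to 5355 CPM in the same order and the 6 of the distal convoluted tubule to 303 to 347, 451 to 610 and 2503 to 4580 CPM. The 7 neutrophil markers summed to 112 to 343 CPM at 48 h and to at most 8.0 CPM elsewhere, with 1 of them at 0 in the uninjured group, and the 8 macrophage markers to 25.5 to 33.0, 74.3 to 295 and 43.5 to 116 CPM. In the same order, the 8 principal cell markers summed to 60.1 to 83.1, 332 to 395 and 525 to 748 CPM and the 6 intercalated cell markers to 13.3 to 21.2, 46.4 to 82.9 and 112 to 128 CPM. The 8 endothelial markers summed to 72.5 to 136 CPM, to 672.5, 81.6 and 135.5 CPM in the 48 h replicates, of which the first stands apart, and to 26.4 to 56.1 CPM. These marker sums moved with the groups beside every mitochondrial value given here, and their part in those values was not tested. In such pooled cells, fewer cells of a type and less RNA per cell cannot be told apart.

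Part of the mitochondrial genome has a nearly identical copy in the nuclear genome, and this bears on which row of the table a read was counted in. The annotation places 7 unprocessed pseudogenes on the minus strand of chromosome 1 between positions 24611535 and 24616197 (GRCm38), in the order of the genes they match: Gm29216 (mt-Co1), Gm28661 (mt-Co2), Gm10925 (mt-Atp6), Gm28437 (mt-Co3), Gm28438 (mt-Nd3), Gm10222 (mt-Nd4l) and Gm28439 (mt-Nd4). Of these, 5 match their gene without a mismatch over their whole annotated length. As annotated, Gm28661 covers the first 681 of the 684 bases of mt-Co2 and ends before the stop codon. Gm10925 covers 678 of the 681 bases of mt-Atp6 in the same way. Bases of chromosome 1 outside the annotated rows were not examined, so whether the copies themselves hold these stop codons is not known. The ends of both pairs are shown because they are the stretches in which the annotated rows differ, with the stop codon in capitals (mt-Co2 at chrM:7637-7696 on the plus strand, Gm28661 at chr1:24614885-24614941, mt-Atp6 at chrM:8548-8607, Gm10925 at chr1:24613974-24614030, GENCODE M21 transcripts, 5′ to 3′).
mt-Co2: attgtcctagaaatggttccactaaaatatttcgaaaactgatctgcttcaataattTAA
Gm28661: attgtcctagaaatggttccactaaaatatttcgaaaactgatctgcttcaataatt
mt-Atp6: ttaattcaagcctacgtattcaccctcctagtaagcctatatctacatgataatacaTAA
Gm10925: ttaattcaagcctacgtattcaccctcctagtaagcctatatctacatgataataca
Gm28438 differs from mt-Nd3 at a single base, T3C (the base of mt-Nd3, its position from the start of the gene, then the base of Gm28438), which lies in the start codon and is in capitals here (chrM:9459-9481 and chr1:24613097-24613119).
mt-Nd3: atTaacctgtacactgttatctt
Gm28438: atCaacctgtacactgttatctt
Gm28437 covers 783 of the 784 bases of mt-Co3, Gm10222 covers 294 of the 297 bases of mt-Nd4l and Gm28439 covers the first 876 of the 1378 bases of mt-Nd4. Gm29216 matches bases 1054 to 1545 of mt-Co1 with 6 mismatches. A read from inside the matching stretches could come from either genome, and its assignment was decided by the authors' estimation of expected counts. No row of chromosome 1 is annotated as a copy of mt-Atp8, and 6 protein genes (mt-Nd1, mt-Nd2, mt-Nd5, mt-Nd6, mt-Cytb and mt-Atp8) have no copy row there. Whether unannotated bases between the copy rows match mt-Atp8 was not examined. A further 4 rows on chromosomes 2 and 13 (Gm13340, Gm13341, Gm13339 and Gm4076), less similar, stayed at or below 25.3 CPM in every library.

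These copy rows held a large share of the counts, and the share differed between groups. Copy counts equalled 20.8%, 20.5% and 20.4% of the counts on mitochondrial genes in the uninjured group, 7.05%, 4.53% and 8.96% in the 48 h group and 7.18%, 15.9% and 7.19% in the d14 group. The uninjured libraries were all above the others, and d14 replicate 2 stood apart from the other d14 libraries. Of the counts on mt-Co2 and its copies, 60.2%, 61.1% and 64.2% lay in the copy rows in uninjured cells, 22.9%, 13.5% and 30.2% in the 48 h group and 26.1%, 60.3% and 24.5% at d14. For mt-Atp6 the copy held 63.6%, 59.0% and 64.4%, then 23.6%, 14.1% and 32.1%, then 26.1%, 60.4% and 25.6%. The division of both genes was thus nearly the same in any one library, and d14 replicate 2 resembled the uninjured libraries. For mt-Co3 the copy held 36.3% to 39.0% in uninjured cells and 5.34% to 10.9% at 48 h, with 7.88%, 32.8% and 8.86% at d14. For mt-Nd3 the copy held 62.8% to 65.2% in uninjured cells and 38.3% to 57.0% at 48 h, with 45.4%, 71.3% and 56.8% at d14, and for mt-Nd4l it held 46.1% to 64.5% over all libraries. The copies of mt-Nd4 and mt-Co1 held at most 5.77% and 0.167%.

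**Figure D1:**
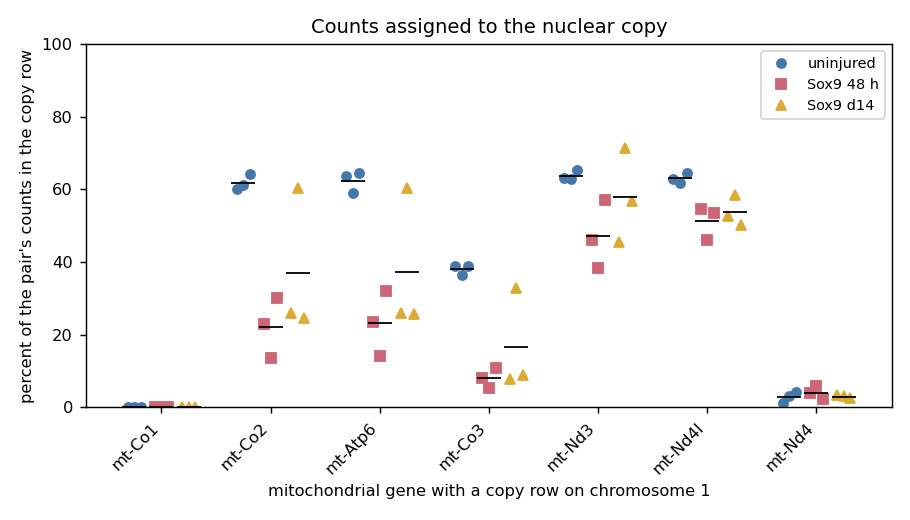
Percent of the counts on a mitochondrial gene and its copy rows that lay in the copy rows, for the 7 genes with a copy on chromosome 1; each point is a library, in the order of replicates, and lines are group means (n = 3). For mt-Co2, mt-Atp6 and mt-Co3 the uninjured libraries and d14 replicate 2 are high and the other libraries low.

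Neighbouring genes on a shared messenger RNA were compared with and without the copies. mt-Atp8 and mt-Atp6 are translated from a joint transcript and overlap by 43 bases at chrM:7927-7969, shown with the start codon of mt-Atp6 and the stop codon of mt-Atp8 in capitals.
mt-Atp8 and mt-Atp6: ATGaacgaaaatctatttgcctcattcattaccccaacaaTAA
As deposited, counts on mt-Atp8 were 0.614, 0.502 and 0.615 of those on mt-Atp6 in uninjured cells, 0.274, 0.248 and 0.264 in the 48 h group and 0.261, 0.420 and 0.232 in the d14 group. With the copy counts added to mt-Atp6 the ratios were 0.224, 0.205 and 0.219, then 0.210, 0.213 and 0.179, then 0.193, 0.167 and 0.172. The 48 h mean was thus 0.454 times the uninjured mean before the addition and 0.929 times after it. The d14 mean was 0.528 times before and 0.821 times after, and all d14 values stayed below the uninjured ones. The pair mt-Nd4l and mt-Nd4, which overlap by 7 bases (in capitals, chrM:10144-10173), had group means of 0.0655 ± 0.0031 (uninjured), 0.0874 ± 0.0090 (48 h) and 0.0822 ± 0.0091 (d14; SD, n = 3) as deposited, and 0.172 ± 0.007, 0.172 ± 0.009 and 0.173 ± 0.009 with the copies added.
mt-Nd4l: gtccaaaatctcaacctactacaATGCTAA
Ratios to mt-Co1 did not all come nearer to the uninjured mean. At d14 mt-Co2 over mt-Co1 was 1.27 times that mean before the addition and 0.768 times after it. For mt-Co3 over mt-Co1 these were 0.98 and 0.72 times. At 48 h mt-Co2 over mt-Co1 went from 1.86 to 0.921 times and mt-Co3 over mt-Co1 from 1.27 to 0.858 times. All these ratios were chosen after the values of the copies were seen and carry no test. Because the rows of a pair cannot be separated by most reads, the calls below are counted both as deposited and with copy counts added to the matching mitochondrial gene, and for other values it is said whether copies were added.

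The share of a library's counts on mitochondrial genes was highest at 48 h. As deposited it was 25.1%, 26.8% and 29.2% in uninjured cells (27.1% ± 2.08, SD, n = 3), 39.1%, 39.2% and 32.7% in the 48 h group (36.99% ± 3.75) and 15.2%, 23.5% and 25.2% at d14 (21.3% ± 5.36). All 48 h libraries lay above all others, while the ranges of uninjured and d14 libraries met, with d14 replicate 1 far below its group. With the copies added the shares were 30.3%, 32.3% and 35.2% in uninjured cells, 41.9%, 41.0% and 35.6% in the 48 h group and 16.2%, 27.3% and 26.96% in the d14 group. On that count d14 libraries all lay below the uninjured ones, and the lowest 48 h library was just above the highest uninjured library. A share depends on every other gene of the library, so the genes were also tested one by one under TMM scaling.

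**Figure D2:**
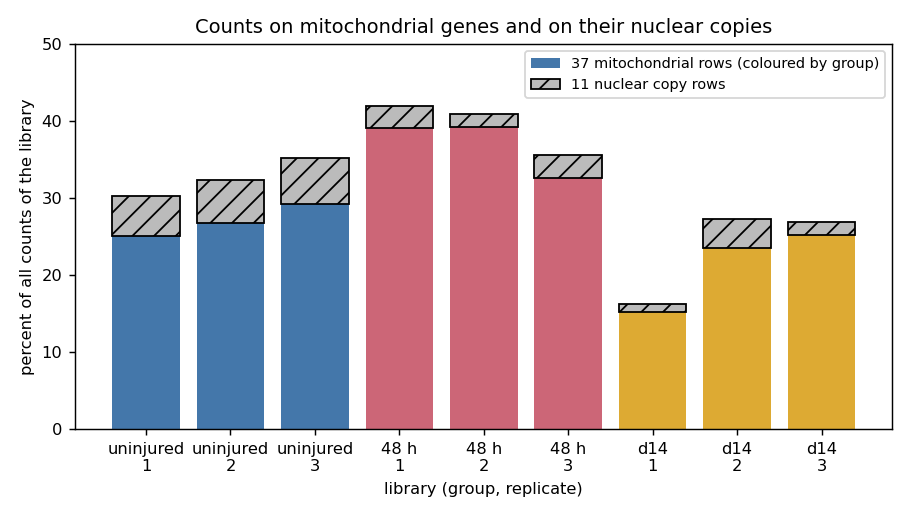
Percent of all counts of each library on the 37 mitochondrial genes (coloured by group) and on 11 nuclear copy rows (hatched, stacked). The 48 h libraries reach 35.6% to 41.9% with copies, the uninjured libraries 30.3% to 35.2% and the d14 libraries 16.2% to 27.3%.

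Of the 37 genes, 15 passed the filter on low counts: the 13 protein genes and both rRNA genes. Tests used edgeR's quasi-likelihood F-test over all 15519 genes that passed, with Benjamini-Hochberg adjusted p under 0.05 as the call. Replicates are biological replicates per the labels.

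At 48 h, mt-Co2 and mt-Atp6 were higher than in uninjured cells as deposited, and neither call held once their copies were added. The row of mt-Co2, a copper-binding subunit of cytochrome c oxidase, was at 12800, 13990 and 14200 CPM in uninjured cells against 36300, 33870 and 24240 CPM at 48 h, a log2 fold change of 1.204 ± 0.28 (SE, adjusted p = 0.00817). The row of mt-Atp6, the proton channel subunit of ATP synthase, was at 10810, 12290 and 11680 CPM and at 29080, 30240 and 22210 CPM (1.23 ± 0.31, adjusted p = 0.0121). In both, the 48 h libraries lay above all uninjured ones. With copies added mt-Co2 was at 32170, 35950 and 39640 CPM in uninjured cells against 47100, 39200 and 34710 CPM at 48 h, and the groups overlapped (0.17 ± 0.26, adjusted p = 0.674). mt-Atp6 was then at 29690, 30010 and 32840 CPM against 38060, 35240 and 32700 CPM (0.20 ± 0.26, adjusted p = 0.622). As deposited, 2 of 15 genes were called higher, where 17.4% of all genes tested were, and 0 were called lower, where 11.7% of all genes were. Of the 15, 6 had an unadjusted p under 0.05, and DESeq2 called 3 higher and 0 lower. Of all 15519 genes, DESeq2 called 3234 higher and 2164 lower. With copies added 0 were called in either direction by edgeR and by DESeq2, and 1, mt-Rnr2, had an unadjusted p under 0.05. Among the copy rows themselves, Gm28437 was called lower at 48 h (-2.18 ± 0.61, adjusted p = 0.0268), and Gm28661 (-1.33 ± 0.49, adjusted p = 0.0680) and Gm10925 (-1.24 ± 0.46, adjusted p = 0.0691) were not.

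All 13 protein genes had a log2 fold change above 0 at 48 h, with a median of 0.48 and a range of 0.09 to 1.23 as deposited and a median of 0.22 and a range of 0.02 to 0.53 with copies added, beside a median of 0.02 over all genes. mt-Nd1, a membrane subunit of complex I with no copy row on chromosome 1, was at 25820, 30230 and 31860 CPM in uninjured cells against 48770, 41150 and 36880 CPM at 48 h. All 3 of its 48 h values lay above the uninjured ones, but it was not called as deposited (0.53 ± 0.28, adjusted p = 0.191). With copies added, mt-Rnr2 and mt-Nd1 passed the threshold when d14 replicate 1 was left out of the shared fit (adjusted p = 0.0230 and 0.0273), and mt-Rnr2 when d14 replicate 2 was (adjusted p = 0.0345).

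At d14 mitochondrial messenger RNAs were lower than in uninjured cells. As deposited, 10 of the 15 genes were called lower, where 20.7% of all genes tested were, and 0 higher, where 25.1% were. DESeq2 called 0 of them higher too, where it called 4248 of all 15519 genes higher. In that fit 11 of the 15 genes had an unadjusted p under 0.05, each with a fold change below 0. With copies added all 13 protein genes were called lower, with a median log2 fold change of -1.11 and a range of -1.64 to -0.75 (-0.91 and -1.47 to -0.42 as deposited), against a median of 0.06 over all genes. The genes called with the copies and not without were mt-Co1, mt-Co2 and mt-Atp6. The mt-Co2 row alone was at 7564, 7834 and 14520 CPM at d14 (-0.45 ± 0.28, adjusted p = 0.204) and overlapped the uninjured row. With copies it was at 10230, 19750 and 19230 CPM, below all uninjured values (-1.13 ± 0.26, adjusted p = 0.00434). mt-Atp6 changed from -0.42 ± 0.30 (adjusted p = 0.288) to -1.13 ± 0.26 (adjusted p = 0.00458). mt-Co1, the catalytic subunit of cytochrome c oxidase, moved little, from an adjusted p of 0.0559 to 0.0446 at -0.75 ± 0.28.

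The largest falls at d14 were in mt-Nd3 and mt-Atp8. mt-Nd3, a small membrane subunit of complex I, was with copies at 5732, 6684 and 6062 CPM in uninjured cells against 1270, 2026 and 2641 CPM at d14 (-1.64 ± 0.25, adjusted p = 0.000251). mt-Atp8, a small membrane subunit of ATP synthase, was at 6640, 6166 and 7188 CPM and 1608, 2594 and 3172 CPM (-1.44 ± 0.24, adjusted p = 0.000472). It has no annotated copy row, but its last 43 bases are also the start of mt-Atp6, which Gm10925 matches. In both genes every d14 library was below every uninjured library. Among other genes with no copy row on chromosome 1, again in the fit with copies added, mt-Cytb, the only mitochondrially encoded subunit of complex III, fell from 38930, 42600 and 49110 to 12270, 25590 and 25340 CPM (-1.05 ± 0.28, adjusted p = 0.0102). mt-Nd6, the only protein gene read from the other strand, went from 6739, 5325 and 7572 to 1994, 4438 and 4374 CPM (-0.86 ± 0.28, adjusted p = 0.0278). mt-Nd6 overlaps mt-Nd5 by 14 bases on opposite strands, and the strand setting of the counting is not given. Reads of those bases cannot be attributed, and reads from either strand over the rest of mt-Nd6 may have been counted in its row. The fall of that row therefore need not be that of mt-Nd6 messenger RNA alone. Its counts were 0.215 to 0.242 of those on mt-Nd5 in all 9 libraries, so both rows fell in nearly the same proportion.

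Size and number of these falls depend on the scaling and, as deposited, on single uninjured libraries. TMM factors were 0.846 to 0.912 in the uninjured and 48 h libraries and 1.21 to 1.48 at d14. Without TMM the median gene of the table was 0.63 higher at d14 than in uninjured cells on the log2 scale. Of all 15519 genes, 1418 were then called lower and 7310 higher as deposited. Of the mitochondrial genes, 3 were called lower as deposited and 8 with copies added. As deposited, mt-Rnr2, mt-Co2 and mt-Atp6 turned to 0.05, 0.09 and 0.12, each still below that median. Scaled on nuclear genes alone, 11 were called lower as deposited, where 23% of all genes were, and 13 with copies added. Without uninjured replicate 1, or without uninjured replicate 3, 6 were called lower as deposited and 10 with copies added. Of all genes, 2596 of 16151 and 2782 of 16170 were called lower in these 2 fits as deposited.

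Between 48 h and d14 the fall covered nearly the whole set. As deposited and with copies added, 14 of 15 genes were lower at d14, where 16.3% of all genes tested were, and 0 higher, where 16.8% were. All 15 had an unadjusted p under 0.05, and DESeq2 called 15 lower and 0 higher. Of all 15519 genes, DESeq2 called 3009 lower and 2946 higher as deposited. The d14 libraries lay below the 48 h libraries in all 15 genes, and how many of all genes did so was not counted. With copies added the protein genes had a median log2 fold change of -1.30 and a range of -1.66 to -1.04, against 0.06 over all genes. mt-Nd2 fell from 35670, 28750 and 22350 to 5225, 11730 and 10970 CPM (-1.64 ± 0.30, adjusted p = 0.00227) and mt-Co1 from 96100, 110100 and 85780 to 28900, 56570 and 56540 CPM (-1.04 ± 0.28, adjusted p = 0.0152). mt-Rnr1 was the gene not called. This comparison shares its d14 libraries with the comparison against uninjured cells.

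**Figure D3:**
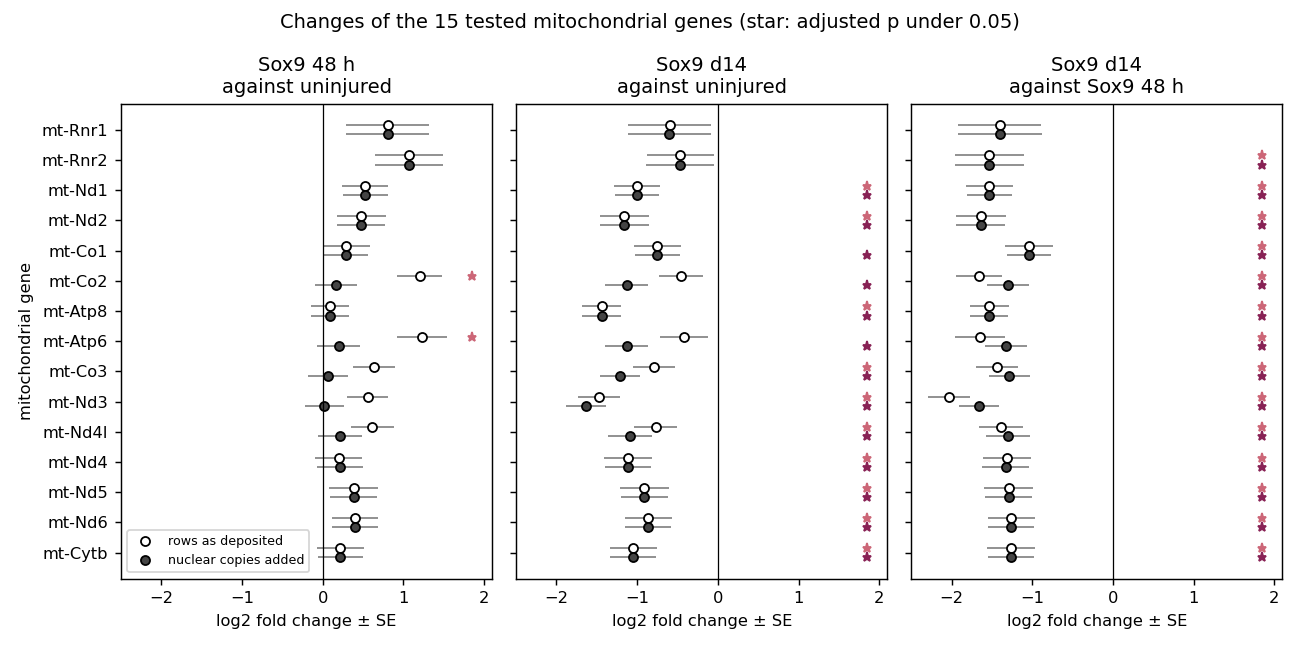
Log2 fold change ± SE (edgeR, 3 against 3 libraries) of the 15 tested mitochondrial genes in genome order, for 48 h against uninjured, d14 against uninjured and d14 against 48 h; open circles are the rows as deposited, filled circles have nuclear copies added, and stars mark adjusted p under 0.05. At 48 h the stars of mt-Co2 and mt-Atp6 are lost when copies are added, and at d14 all 13 protein genes carry a star against uninjured cells with copies added.

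The rRNA genes, which encode the RNAs of the small (mt-Rnr1) and large (mt-Rnr2) mitochondrial ribosomal subunit, were the least even of the set. As deposited, mt-Rnr1 was at 1839, 2916 and 2714 CPM in uninjured cells, 4090, 3059 and 5895 CPM in the 48 h group and 622, 3049 and 1263 CPM at d14. mt-Rnr2 was at 2886, 4375 and 4265 CPM, 10580, 5706 and 7838 CPM, and 1229, 4568 and 2553 CPM. Every 48 h library was above every uninjured one for both, and d14 replicate 2 was above the other d14 libraries. Neither was called at 48 h (0.81 ± 0.51, adjusted p = 0.278, and 1.07 ± 0.42, adjusted p = 0.0851) or at d14 against uninjured cells (-0.60 ± 0.51 and -0.47 ± 0.42). Against 48 h, mt-Rnr2 was called lower at d14 (-1.53 ± 0.43, adjusted p = 0.0205) and mt-Rnr1 was not (-1.40 ± 0.52, adjusted p = 0.0665). In 48 h replicate 3 and d14 replicate 2, in which mt-Rnr1 was highest in its group, another rRNA row, CT010467.1 on chromosome 17, took 5.06% and 3.53% of all counts, against 0.954% to 1.51% in the other libraries; this row was chosen after its values were seen, and its part in the rRNA values was not tested.

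Almost no count fell on the tRNA genes. The 22 genes, 59 to 75 bases long, had 147 counts in all over the 9 libraries, 75 of them on mt-Ts1 and 27 on mt-Te, and 10 had none. The highest count of a tRNA gene in a library was 32. None passed the filter, so no tRNA gene was tested, and the library method selected polyadenylated RNA, per the labels.

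Relative amounts of the 15 genes kept nearly the same order in all groups. With copies added and counts divided by gene length, mt-Co1 and mt-Co2 were at the top in every group, at 12.5% ± 0.6 and 12.7% ± 0.4 of the length-scaled mitochondrial counts in uninjured cells, 12.9% ± 1.3 and 12% ± 0.7 in the 48 h group and 15.7% ± 0.3 and 12.4% ± 0.5 at d14 (SD, n = 3). In uninjured and 48 h cells these neighbours in the order did not differ beyond their spread. mt-Atp6 (10.6% to 11%), mt-Co3 (9.20% to 10.4%) and mt-Cytb (9.02% to 9.39%) followed in each group. The 2 rRNA genes were last in each group, between 0.59% and 1.04%, below mt-Nd6 (3.06% to 3.51%) and mt-Nd3 (2.95% to 4.31%). These are levels in libraries selected for poly(A) and need not reflect the amounts in the cell.

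Within the mitochondrial counts no gene's share passed the test of edgeR, and some shares did not overlap between groups. mt-Co1 took 21.7%, 20.5% and 22.1% of mitochondrial counts with copies added in uninjured cells, 19.5%, 23.3% and 21.99% in the 48 h group and 26.3%, 25.4% and 25.4% at d14, and the d14 libraries lay above all others. mt-Nd3 took 1.69%, 1.87% and 1.46%, then 1.51%, 1.16% and 1.48%, then 1.16%, 0.910% and 1.19%, with all d14 libraries below the uninjured ones. mt-Atp8 took 1.95%, 1.72% and 1.73%, then 1.61%, 1.59% and 1.50%, then 1.46%, 1.17% and 1.423%. Its groups did not overlap in any pair. With library size set to the mitochondrial counts, edgeR called 0 of 15 genes in any comparison, as deposited or with copies added. As deposited, 2 genes had an unadjusted p under 0.05 at 48 h, mt-Co2 and mt-Atp6, and none in the other comparisons. By limma voom 2 were called higher at 48 h, 2 lower at d14 against uninjured cells and 3 lower at d14 against 48 h. How many of all genes limma voom called under this scaling was not counted, so these counts cannot be set against a share. With copies added 1 gene, mt-Rnr2, had an unadjusted p under 0.05 at 48 h. Under this scaling, edgeR called 11% of all genes higher and 12.6% lower at 48 h, 53.2% and 4.12% at d14 against uninjured cells, and 70.4% and 1.69% at d14 against 48 h. With copies added these shares by edgeR were 11.7% and 7.12%, 58.7% and 3.57%, and 69.2% and 1.75%. The standard errors of these fold changes were 0.34 to 0.38 on the log2 scale for every gene. A log2 fold change of 0.76, that of mt-Atp6 as deposited at 48 h, did not pass the threshold. The SD of the log2 share over the 9 libraries, copies added, was only 0.0451 for mt-Cytb and at most 0.323 among the protein genes, for mt-Nd3. The fit shares its dispersion trend over all genes, and with copies added its standard errors of 0.356 to 0.376 exceeded each of these SDs. The absence of calls therefore does not show that the shares stayed the same. Adding the copies lowered the SD over the 9 libraries of the log2 share most for mt-Co2 (0.40 to 0.09) and mt-Atp6 (0.44 to 0.10). It fell less or not at all in the other protein genes. For mt-Nd3 it went from 0.459 to 0.323, and for mt-Co1 it stayed at 0.149. It rose for mt-Nd1 (0.122 to 0.138), mt-Nd5 (0.112 to 0.117) and mt-Nd6 (0.133 to 0.14).

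**Figure D4:**
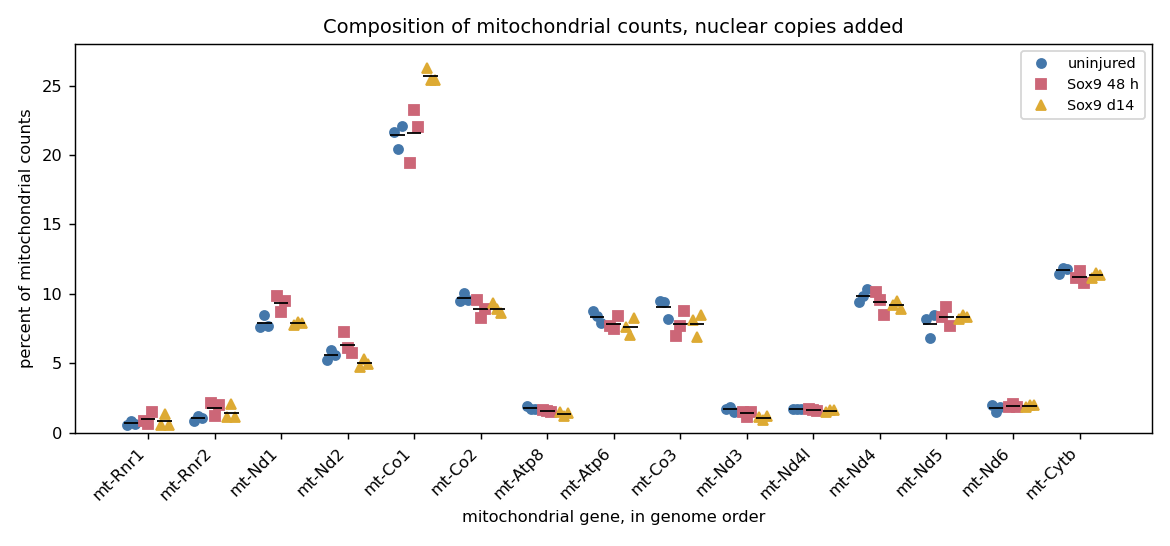
Percent of each library's mitochondrial counts, nuclear copies added, on the 15 genes with enough counts, in genome order; points are libraries in the order of replicates and lines are group means (n = 3). mt-Co1 lies at 25.4% to 26.3% at d14 and at 19.5% to 23.3% in the other groups.

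Some mitochondrial reading frames end without a full stop codon, which the poly(A) tail completes. The lengths of 3 protein genes (mt-Co3, mt-Nd4 and mt-Cytb) are not multiples of 3, and their annotated ends are shown with the incomplete stop codon in capitals (chrM:9361-9390, chrM:11515-11544 and chrM:15259-15288, plus strand), since the tail that completes them is also the feature by which the libraries were selected.
mt-Co3: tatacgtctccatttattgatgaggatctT
mt-Nd4: gtccaaaactaattacaggcctgacaataT
mt-Cytb: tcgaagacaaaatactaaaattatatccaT
With copies added, these genes fell at d14 by -1.22 ± 0.25 (adjusted p = 0.00209), -1.11 ± 0.29 (adjusted p = 0.00844) and -1.05 ± 0.28 on the log2 scale, within the range of the other 10 protein genes.

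Nuclear genes that build the same complexes were mostly lower at d14 too, with medians nearer to 0 than the -1.11 of the mitochondrial protein genes with copies added; that difference was not tested. Of 36 nuclear complex I subunits, 33 (91.7%) were called lower at d14 against uninjured cells, where 20.7% of all genes were, and 0 higher, where 25.1% were (median log2 fold change -0.58); Ndufs1, which carries iron-sulphur clusters, fell by 0.94 ± 0.11 and Ndufv1, which binds NADH, by 0.98 ± 0.12. Of complex II, which has no mitochondrially encoded subunit, all 4 genes were lower (Sdhc, a membrane anchor, -1.10 ± 0.12), and 8 of 9 complex III genes were (Uqcrfs1, the Rieske protein, -0.94 ± 0.11). For complex IV and ATP synthase 9 of 13 and 13 of 18 were lower, with medians of -0.39 and -0.50. At 48 h the counts called lower were 7, 3, 3, 5 and 2 for complexes I, II, III and IV and ATP synthase, with medians of -0.11, -0.45, -0.10, -0.28 and -0.08, and 0 were higher. All genes were called lower at 11.7% and higher at 17.4% in that comparison; the 2 of 18 ATP synthase genes (11.1%) are at that share and the 7 of 36 complex I genes (19.4%) are near it. At d14 against 48 h, 24, 3, 7, 3 and 8 were lower, where 16.3% of all genes were lower and 16.8% higher. The 3 of 13 complex IV genes are near that share. No gene of the 5 lists was higher in any comparison.

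Summed over a complex, messenger RNAs from the mitochondrial genome exceeded those from nuclear genes in every library, and the ratio was highest at 48 h. With copies added, the mitochondrial genes of ATP synthase summed to 4.90, 5.13 and 5.65 times the CPM of the nuclear genes in uninjured cells, 7.42, 7.56 and 7.36 times in the 48 h group and 2.39, 3.83 and 4.14 times at d14. For complex IV the ratio was 46.3, 51.1 and 60.98, then 71.8, 77.3 and 70.3, then 25.5, 42.4 and 41.5. In both, the 3 groups did not overlap. As deposited, uninjured and d14 cells did overlap in both: the ratio of ATP synthase was 2.35, 2.62 and 2.66, then 5.97, 6.67 and 5.35, then 1.87, 1.847 and 3.24, and that of complex IV 35.5 to 46.7, 63.8 to 74.2 and 23.7 to 38.7. The 48 h libraries were above all others in both either way. With copies added, the ratio of complex I was 27.3 to 37.7 (uninjured), 41.2 to 51.6 (48 h) and 15.9 to 28.3 (d14), and that of complex III 19.5 to 26.6, 27.1 to 31.7 and 11.3 to 20.7; for these, uninjured and d14 cells overlapped. At 48 h the nuclear sums lay below the uninjured ones (ATP synthase 5242 to 6205 against 7055 to 7411 CPM) while the mitochondrial sums of both groups overlapped. The sums are not scaled by length and are compared only between libraries.

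Of 23 nuclear genes of mtDNA replication and transcription, 8 (34.8%) were lower at d14 against uninjured cells, where 20.7% of all genes were, and 4 (17.4%) at 48 h, where 11.7% were, a share near that of all genes. None was higher in either, where 25.1% and 17.4% of all genes were. Tfam, which packages mtDNA and starts its transcription, was at 40.4, 39.4 and 40.4 CPM in uninjured cells, 31.6, 30.3 and 31.9 CPM in the 48 h group and 21.8, 23.6 and 28.2 CPM at d14, and its 3 groups did not overlap (-0.36 ± 0.12, adjusted p = 0.0427, at 48 h and -0.71 ± 0.12, adjusted p = 0.000500, at d14). Polrmt, the mitochondrial RNA polymerase, was lower at d14 (-0.42 ± 0.11, adjusted p = 0.00995) and not called at 48 h (-0.32 ± 0.11, adjusted p = 0.0540). Tefm, its elongation factor, was lower at both times (-0.90 ± 0.25 and -1.05 ± 0.25), and Top1mt, a topoisomerase of mitochondria, was at 32.7 to 35.0 CPM in uninjured cells and 8.94 to 13.3 CPM at d14 (-1.64 ± 0.17). Of the Mterf family, Mterf3 was lower at d14 (-0.73 ± 0.16, adjusted p = 0.00340), and Mterf1a, Mterf1b, Mterf2 and Mterf4 were called in no comparison. Of 30 genes of RNA processing and stability 15 (50%) were lower at d14, where 20.7% of all genes were. At 48 h 5 (16.7%) were lower, near the 11.7% of all genes. Lrpprc and Slirp, whose proteins bind together and stabilise mitochondrial messenger RNAs, were lower at d14 against uninjured cells (-0.88 ± 0.13 and -0.87 ± 0.14) and against 48 h (-0.76 ± 0.13 and -0.94 ± 0.14), and not called at 48 h (-0.11 ± 0.13 and 0.06 ± 0.14).

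Of 79 mitochondrial ribosomal protein genes 56 (70.9%) were lower at d14 against uninjured cells, where 20.7% of all genes were, and 1 (1.27%) higher, where 25.1% were. At 48 h 6 (7.59%) were lower and 5 (6.33%) higher, both below the 11.7% and 17.4% of all genes. The higher gene was Mrps6, at 10.9 to 13.7 CPM (uninjured), 27.3 to 37.8 CPM (48 h) and 55.7 to 60.96 CPM (d14), a log2 fold change of 2.25 ± 0.15 at d14; Mrpl12 fell by 1.22 ± 0.13. Of 32 translation factors and tRNA synthetases 20 (62.5%) were lower at d14 and 8 (25%) at 48 h, where 20.7% and 11.7% of all genes were. Gatb, a subunit of the enzyme that makes glutaminyl-tRNA in mitochondria, was lower at 48 h and d14 (-0.92 ± 0.14 and -1.67 ± 0.14). Of 40 assembly factors 25 (62.5%) were lower at d14 and 5 (12.5%) at 48 h, the latter near the 11.7% of all genes. Coa6 of complex IV changed by -1.35 ± 0.16 at d14. Uqcc2 of the same list was called higher at 48 h (0.85 ± 0.17, adjusted p = 0.00308) and at d14 (0.46 ± 0.16, adjusted p = 0.0371).

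Of 13 biogenesis regulators 4 (30.8%) were lower and 2 (15.4%) higher at d14 against uninjured cells, where 20.7% and 25.1% of all genes were, and 2 (15.4%) lower and 1 (7.69%) higher at 48 h, where 11.7% and 17.4% were; with so few genes these counts are near those of all genes. Ppargc1a, a coactivator that drives mitochondrial biogenesis, was at 45.8, 46.8 and 57.9 CPM in uninjured cells, 43.1, 45.7 and 28.8 CPM in the 48 h group and 57.8, 75.2 and 73.2 CPM at d14. It was higher at d14 than at 48 h (0.82 ± 0.18, adjusted p = 0.00608) and was not called against uninjured cells (0.45 ± 0.18, adjusted p = 0.0569). Ppara and Esrra, receptors that act with it on genes of oxidation, were lower at d14 than in uninjured cells (-2.30 ± 0.39 and -0.99 ± 0.18), and Esrrb was higher (2.05 ± 0.36). Of 16 genes of mitophagy and dynamics, 7 (43.8%) were lower and 1 (6.25%) higher at d14, and 6 (37.5%) lower and 2 (12.5%) higher at 48 h. Pink1, the kinase that marks damaged mitochondria, was at 287 to 303 CPM (uninjured), 104.7 to 109 CPM (48 h) and 104 to 152 CPM (d14), with log2 fold changes of -1.46 ± 0.14 and -1.17 ± 0.14. Of 11 stress genes tested 7 were lower and 1 higher at d14 and 4 lower and 1 higher at 48 h: Hspd1, the mitochondrial chaperonin, was at 484 to 614 CPM without injury against 172 to 201 CPM at d14 (-1.56 ± 0.13), and Atf5, a transcription factor of the mitochondrial stress response, was higher at 48 h (2.16 ± 0.35).

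**Figure D5:**
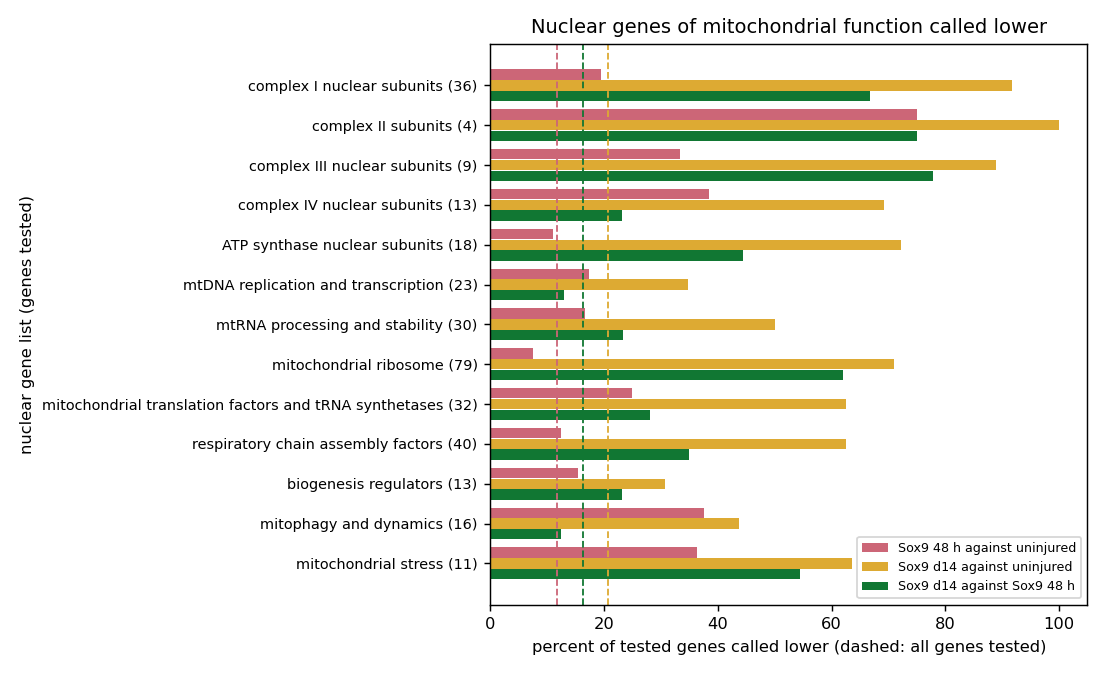
Percent of the tested genes of each of 13 nuclear gene lists called lower (edgeR, adjusted p under 0.05) in the 3 comparisons; dashed lines give the percent of all genes tested called lower, 11.7% at 48 h and 20.7% at d14 against uninjured cells and 16.3% at d14 against 48 h. At d14 against uninjured cells the bars reach 91.7% for complex I and 70.9% for the mitochondrial ribosome.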

How the data were processed

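The authors deposited RSEM expected counts per gene and library as whole numbers, not scaled to depth. Tools listed without roles, per the submitters' processing notes, were RSEM 1.2.28, STAR 2.6.1, bcl2fastq 2.20 and DESeq2 1.26.0 under R 3.6.3, and both a mouse and a human build. All identifiers are mouse, so mm10 (GRCm38) was taken; which annotation release and strand setting were used is not stated in the labels. Of 55385 genes, 54487 identifiers matched GENCODE M21 with version and 55144 without; 92 spike-in rows were all 0 and were not used. A gene was taken as a nuclear copy when blastn aligned its transcript to a mitochondrial gene at 95% identity or more over 200 bases or more (11 genes, 10 of which passed the filter below).

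edgeR 4.0.16 (R 4.3.3, limma 3.58.1) kept 15519 genes by filterByExpr (minimum count 10, minimum total 15), holding at least 99.89% of counts, with TMM scaling and 1 mean per group over all 9 libraries. The quasi-likelihood F-test was adjusted by Benjamini-Hochberg over all genes tested. SE is the log2 fold change over the square root of F. A fit with library size set to mitochondrial counts tested the composition, and DESeq2 1.42.0 was an alternative. The procedure was tested on simulated data. Named genes were all mitochondrial rows past the filter, nuclear copies, and by list up to 4 called nuclear genes with the smallest p, with some fixed by name. The members and lists were chosen with earlier results of these data known. Expected counts carry no error for the division of reads between identical rows, and replicates number 3 per group.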

Additional observations from a re-analysis of the deposited data

How the results depend on the processing

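For 48 h against uninjured cells, the 2 mitochondrial genes called higher became 5 in a fit of those 2 groups only, and 1 to 6 when a library was left out (1 without uninjured replicate 1, 6 without d14 replicate 1). With nuclear copies added they became 0, also with nuclear scaling, no TMM, the replicate block or DESeq2, and 0 to 2 when a library was left out (2 without d14 replicate 1, 1 without d14 replicate 2). For d14 against uninjured cells, the 10 called lower became 3 without TMM, where 1418 of all 15519 genes were lower. They became 6 to 13 when a library was left out (6 without uninjured replicate 1 or 3), and 10 to 15 with copies added. For d14 against 48 h the 14 stayed at 13 to 15 under all of these. Within mitochondrial counts 0 became 2, 2 and 3 with limma voom in the 3 comparisons; without d14 replicate 1 they were 2 at 48 h, 2 at d14 against uninjured cells and 1 at d14 against 48 h, and with copies added 1, 2 and 0, with 1 at d14 against 48 h without d14 replicate 2; the range over left-out libraries was thus 0 to 2, 0 to 2 and 0 to 1. For these fits within mitochondrial counts, calls over all genes were not counted. The uninjured mitochondrial share became 32.6% with copies added. Leaving out a library gave shares of 25.96% to 28.03% (uninjured), 35.9% to 39.2% (48 h) and 19.3% to 24.3% (d14). Causes were not tested. All combinations of added copies with another choice, and the complex ratios as deposited, were chosen after seeing the data.

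Signs reversed, with no call either way, for mt-Atp8 at 48 h without 48 h replicate 1 (-0.001 with and without copies; up to 0.211 when another library was left out), for mt-Nd3 at 48 h with copies added without uninjured replicate 1 (-0.035) or 48 h replicate 1 (-0.135; up to 0.102 otherwise), and at d14 against uninjured cells without TMM for mt-Rnr2 (0.051), mt-Co2 (0.087) and mt-Atp6 (0.117). Of 1395 alternatives for single genes, 1251 kept direction and side of the threshold, 69 lost a call and 67 gained one. Replicate numbers showed no sign of pairing the libraries. Deviations of same-numbered libraries correlated at -0.17 to 0.06, and those of differently numbered libraries at -0.073 to 0.131. With 3 libraries per group these values cannot exclude a pairing. With the replicate number as a block, 2 genes were higher at 48 h (0 with copies added), 10 lower at d14 against uninjured cells (12 with copies added) and 15 lower against 48 h.

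Expected counts carry no error for reads shared with nuclear copies, and the standard errors of mt-Co2, mt-Atp6, mt-Co3, mt-Nd3 and mt-Nd4l do not include it. The same holds for mt-Atp8 over the 43 bases it shares with mt-Atp6. The tRNA genes had too few counts to be tested.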
